A study of Mus musculus with 12 samples.

Results

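The genes described here were 42 transcription factors known chiefly for lineages other than the mesenchymal stem cells studied, out of 21938 protein-coding genes of the mouse annotation. They were taken from a fixed list of names, grouped here as 16 neural, 10 endodermal, 4 muscle, 4 heart and 5 blood factors and 3 factors of the sclerotome, pharynx and kidney. Some members, among them but not only Pax1, Pax9 and Hand2, also act in precursors of the skeleton and limbs, so the grouping is not exclusive. All 42 were found in the annotation and all are accounted for. For each gene, every peak that shared at least 1 bp with the gene body or the 5000 bp on either side of it, called the window here, was read from the peak lists. The measured values are the presence, position, width and score of peaks of 2 histone modifications.

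Chromatin immunoprecipitation followed by sequencing (ChIP-seq), which recovers the DNA bound to histones with a given modification, was carried out on mesenchymal stem cells (MSCs) of mice aged 3 to 5 months, cultured at 2% oxygen (hypoxia) or 21% oxygen (normoxia). The mice were wild-type males of strain C57BL/6N, and the cells were grown out of hind limb bone at low oxygen, sorted as CD45-/Ter-119-/Sca-1+/CD140a+ and then divided between both oxygen levels for 7 days. The sample labels call them bone-marrow MSCs and place the sort on day 12 of culture. The 12 libraries were 2 replicates each of H3K27ac, H3K4me3 and input at either oxygen level. A single list of peaks was made for a mark at an oxygen level, from both replicates. The lists hold no value per library, so depth, replicate spread and input signal are unknown here, no difference has a replicate check, and no test was made. A missing peak means only that none was called.

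A lineage transcription factor binds DNA and switches on the genes of one cell type, and in cells of another type its own gene is usually silent. H3K4me3, the trimethylation of lysine 4 of histone H3, sits at promoters and above all at those rich in CpG dinucleotides (CpG islands), whether or not the gene is transcribed. H3K27ac, the acetylation of lysine 27, marks promoters and enhancers in use. Promoters of developmental genes that carry H3K4me3 without acetylation often carry the repressive mark H3K27me3 as well and are then called bivalent or poised. H3K27me3 was not measured in these libraries, so no gene is called poised below.

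Genes known from the sorted cell type were read in the same way as a check of the label. Of 14 stromal marker genes, 12 had both marks in the window, 1 (Ly6a, which encodes Sca-1) had H3K27ac only and 1 (Lepr) had H3K4me3 only. Of 10 blood marker genes, 6 had neither mark, including Ptprc (CD45), 1 had H3K4me3 only and 3 (Itga2b, Cd68 and Cd79a) had both. Of 5 endothelial markers 3 had neither mark, 1 (Pecam1) had H3K27ac only and 1 (Kdr) had H3K4me3 only. Of 4 muscle markers 3 had neither and 1 (Ckm) had H3K4me3 only. Among 5 neural and glial markers, 2 (Gfap and Mbp) had both marks, 2 had H3K4me3 only and 1 had neither. The 4 epithelial and hepatic markers were divided between H3K4me3 only (2) and neither mark (2). Over all protein-coding genes, 44.2% had both marks in the window, 19.6% H3K4me3 only, 2.07% H3K27ac only and 34.2% neither. A mark in the window need not lie at the gene's own start. Within 1000 bp of an own start, Cd68 had both marks, Itga2b H3K27ac only, Mbp H3K4me3 only, and Cd79a and Gfap neither. A peak list does not show how many cells carried a peak, and the part of other cell types in the members' peaks was not tested.

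Because H3K4me3 went with CpG content, as described further on, the DNA before the first start of 6 members is shown first. The first start is the 5′-most start of the gene's transcripts in the GENCODE M21 basic annotation. These are the members with the highest and the lowest CpG observed to expected ratio among those with H3K4me3 only (Foxa1, Pax6), with both marks (Lhx1, Pax9) and with neither mark (Olig2, Pax4). Olig2 stands in for Otx2, which had the highest ratio of the last class but no base before its start that is free of annotated exons, and Olig2 was added for this reason after the values were seen. The sequences are from the GRCm38 reference (mm10), are written 5′ to 3′ along the gene, end at the base before the start, and have CpG dinucleotides in capitals.
Foxa1 chr12:57546122-57546321 (- strand): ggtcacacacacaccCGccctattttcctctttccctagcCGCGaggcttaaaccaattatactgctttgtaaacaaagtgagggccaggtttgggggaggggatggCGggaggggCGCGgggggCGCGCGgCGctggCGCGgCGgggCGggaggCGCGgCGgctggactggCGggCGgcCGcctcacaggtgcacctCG
Pax6 chr2:105668700-105668899 (+ strand): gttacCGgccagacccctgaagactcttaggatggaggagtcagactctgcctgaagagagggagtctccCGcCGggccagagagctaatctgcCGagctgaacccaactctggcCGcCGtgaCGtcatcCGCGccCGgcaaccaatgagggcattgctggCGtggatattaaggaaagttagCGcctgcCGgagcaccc
Lhx1 chr11:84525536-84525668 (- strand): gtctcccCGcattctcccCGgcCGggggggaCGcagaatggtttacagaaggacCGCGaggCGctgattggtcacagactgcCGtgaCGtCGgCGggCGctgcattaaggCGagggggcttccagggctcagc
Pax9 chr12:56691567-56691766 (+ strand): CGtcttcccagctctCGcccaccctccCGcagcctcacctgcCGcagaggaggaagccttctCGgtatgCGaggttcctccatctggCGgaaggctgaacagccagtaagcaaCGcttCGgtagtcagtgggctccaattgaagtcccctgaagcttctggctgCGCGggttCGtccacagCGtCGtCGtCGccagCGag
Olig2 chr16:91225257-91225456 (+ strand): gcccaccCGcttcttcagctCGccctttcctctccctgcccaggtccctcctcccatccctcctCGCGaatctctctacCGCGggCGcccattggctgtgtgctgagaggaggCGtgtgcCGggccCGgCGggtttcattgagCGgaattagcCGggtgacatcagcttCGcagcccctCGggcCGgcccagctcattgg
Pax4 chr6:28449354-28449553 (- strand): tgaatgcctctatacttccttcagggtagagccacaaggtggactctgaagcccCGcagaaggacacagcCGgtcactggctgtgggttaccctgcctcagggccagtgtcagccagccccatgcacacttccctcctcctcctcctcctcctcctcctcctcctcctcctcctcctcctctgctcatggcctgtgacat
The 200 bases before Foxa1 held 21 CpG, those before Pax9 held 17, those before Olig2 held 16 and those before Pax6 held 13. The 133 bases before Lhx1 that no exon covers held 13. The 200 bases before Pax4 held 2, although their GC content of 60.5% was close to the 61.0% before Pax6. The Foxa1 stretch lay inside an H3K4me3 peak. The stretches of Pax6, Lhx1, Pax9, Olig2 and Pax4 lay in no peak of either mark. The peaks that gave Pax6, Lhx1 and Pax9 their class thus lay elsewhere in the window.

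Most members had H3K4me3 without H3K27ac or had no peak at all. In their windows, 18 of 42 (42.9%) had H3K4me3 only, against 19.6% of all protein-coding genes, and 20 (47.6%) had neither mark, against 34.2%. Both marks were present in the window of 3 members (7.14%; Lhx1, Hand2 and Pax9), against 44.2% of all genes. H3K27ac only was found for 1 member (2.38%; Pax8), against 2.07%. Member genes were shorter than the rest, with a median length of 9166.5 bp against 17425 bp over all genes. Among the 10883 genes with a length between the quartiles of the members, the shares were 19.5% for H3K4me3 only, 41.5% for both, 1.86% for H3K27ac only and 37.1% for neither, close to those of all genes.

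A pair of other gene lists was read beside the members. Of 40 transcription factors of mesenchymal and skeletal cells, 27 (67.5%) had both marks, among them Runx2, Sp7, Twist1, Prrx1 and Sox9. Another 11 (27.5%) had H3K4me3 only, as many members did: Runx3, Twist2, Msx1, Msx2, Dlx3, Dlx6, Foxf1, Foxd1, Ebf2, Gli1 and Osr2. Of the rest, 1 (Meox1) had H3K27ac only and 1 (Tcf21) had neither. Of 60 further lineage factors that are not members, 32 (53.3%) had H3K4me3 only, 6 (10%) had both, 2 (3.33%) had H3K27ac only and 20 (33.3%) had neither. The members thus shared with the further lineage factors a low share of genes with both marks, and their share with neither mark was the highest of the lists. These are descriptions of called peaks and were not tested.

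**Figure D1:**
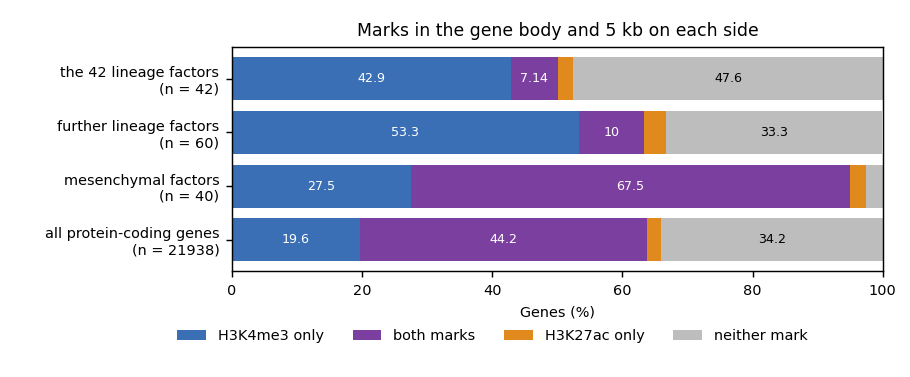
Share of genes (%, x axis) with H3K4me3 only, both marks, H3K27ac only or neither mark in the gene body and 5000 bp on each side, for the 42 lineage factors, 60 further lineage factors, 40 mesenchymal factors and all 21938 protein-coding genes. Both marks take 7.14% of the bar of the 42 factors and 67.5% of that of the mesenchymal factors.

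Of the 16 neural factors, 10 had H3K4me3 only, 1 had both marks and 5 had neither. The 2 proneural factors Neurog1 and Neurog2, which start neuronal differentiation, each had a single H3K4me3 peak over the start, at chr13:56251501-56253000 (1500 bp) and chr3:127632001-127635000 (3000 bp). Nkx6-1, a factor of the ventral neural tube and of pancreatic beta cells, had H3K4me3 over 3500 bp from 1004 bp before to 2495 bp after its start (chr5:101662501-101666000). Isl1, needed for motor neurons, had H3K4me3 at chr13:116309001-116311000 and the most distant H3K27ac of all members, 630312 bp away.

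Lhx2, a LIM-homeodomain factor of the forebrain and eye, had the widest summed H3K4me3 of the members with H3K4me3 only, 8000 bp in 2 peaks. The first (chr2:38338501-38340500) covered the first start, and the second (chr2:38347001-38353000, 6000 bp) lay 7720 to 13719 bp after it, over another annotated start of the gene, with 1135 bp of exon and 4865 bp of intron. Both had a score of 121 at each oxygen level. Eomes, a T-box factor of cortical progenitors and the early embryo, had one H3K4me3 peak over its start (chr9:118477501-118480000, score 136) and another past its end (chr9:118487501-118490000, score 63), at the start of the long non-coding RNA gene Gm33460. In both genes H3K4me3 was thus called in more than one stretch of the window.

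In 3 neural genes the H3K4me3 peak lay away from the first start. For Pax6, the factor of eye and forebrain development, the peak (chr2:105674501-105677500) lay 5601 to 8600 bp after the first of 8 annotated start positions and over a later one, and the promoter stretch printed for it lay outside the peak. For Neurod1, a neuronal differentiation factor, the peak (chr2:79453501-79455500) lay 1251 to 3250 bp after the only start, mostly in its exons (1548 bp), where the RNA gene Gm26755 starts. For Nkx2-2, a factor of ventral neural progenitors, the peak (chr2:147193001-147195500) lay 6597 to 9096 bp before the first start, at a start found only in the comprehensive annotation. The 2 Olig factors, which specify oligodendrocytes, differed: Olig1 had H3K4me3 over its start (chr16:91269001-91271500, score 74), and Olig2, 41094 bp away, had neither mark.

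Lhx1, a factor of the embryonic head and kidney, was counted with both marks through peaks of its neighbour. They lay at chr11:84512001-84513500 (H3K27ac and H3K4me3) and chr11:84513501-84514500 (H3K4me3), past the end of Lhx1 and at the start of Aatf. The nearest H3K4me3 was 3784 bp and the nearest H3K27ac 4784 bp from the Lhx1 gene body, just inside the window, and no peak touched the gene itself. Of the neural factors with neither mark, Pax3 (neural tube, neural crest and muscle progenitors) had an H3K4me3 peak just outside its window, 5867 bp from the gene body. For Sox10 (neural crest and glia), Lhx3 (pituitary and motor neurons) and Otx2 (forebrain) the nearest H3K4me3 was 12408, 27712 and 209677 bp away.

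**Figure D2:**
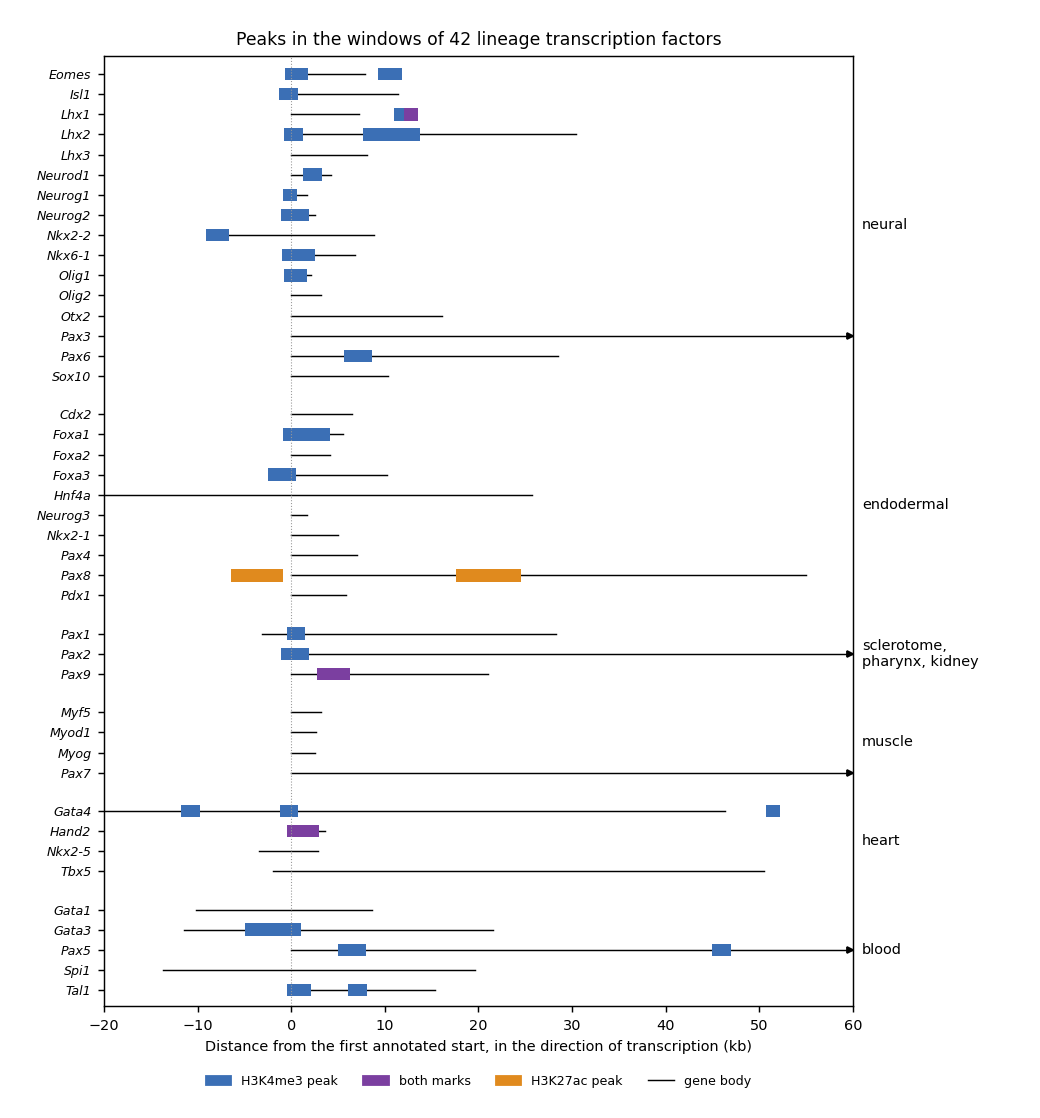
Peaks in the window of each of the 42 factors, by lineage, drawn at their distance (kb) from the first start in the direction of transcription. Blue bars are H3K4me3 peaks, purple bars stretches called for both marks and orange bars H3K27ac peaks, read from either oxygen level. Black lines are gene bodies, and those that reach the edge of the plot continue beyond it. H3K27ac is drawn for 4 genes (Lhx1, Hand2, Pax9 and Pax8).

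Of 10 endodermal factors, 7 (70%) had neither mark in the window, against 34.2% of all protein-coding genes. The 7 were Pdx1, Pax4 and Neurog3 (pancreas), Nkx2-1 (thyroid and lung), Cdx2 (intestine), Hnf4a (liver) and Foxa2 (foregut and liver). Foxa2 had the most distant H3K4me3 of all members, 358032 bp away. Its relatives Foxa1 and Foxa3, pioneer factors of the liver that open closed chromatin, had H3K4me3 only. The Foxa1 peak (chr12:57542001-57547000, score 124) was 5000 bp wide and ran from 879 bp before to 4120 bp after the start. The Foxa3 peak (chr7:19023001-19026000) had a score of 1000, the highest value in the lists, which other peaks share. Of its 3000 bp, 2462 lay outside the gene, and the peak also lay at the start of Sympk. Without peaks at a start of another protein-coding gene, Foxa3 had neither mark.

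Pax8, a factor of thyroid and kidney, was the member with H3K27ac only. One peak lay upstream, from 6401 to 902 bp before the first start (chr2:24476501-24482000, 5500 bp), with scores of 93 in hypoxia and 133 in normoxia. The other lay in an intron, 17599 to 24598 bp after the start (chr2:24451001-24458000, 7000 bp), with scores of 81 and 66. The upstream peak had 27 CpG, or 0.491 per 100 bp, and the intronic peak 47, or 0.671 per 100 bp, whereas the Foxa1 H3K4me3 peak had 302, or 6.04 per 100 bp. Pax8 thus had acetylation in CpG-poor DNA beside and within the gene, and the nearest H3K4me3 was 51560 bp from it.

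The 3 factors of the sclerotome, pharynx and kidney all had H3K4me3 at a start of their own. Pax1, which acts in the sclerotome (the precursor of the vertebral column), had H3K4me3 over 2000 bp (chr2:147364501-147366500, score 125). Pax2, a kidney and eye factor, had H3K4me3 over 3000 bp (chr19:44755001-44758000, score 133). Pax9, which acts in the sclerotome, pharyngeal pouches and teeth, had both marks in the same 3500 bp (chr12:56694501-56698000), 2734 to 6233 bp after its first start and over its later start. The H3K27ac score there was 67 at each oxygen level, and the H3K4me3 score was 124. The promoter stretch printed for Pax9 lay before the first start and so outside this peak.

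None of the 4 muscle factors had a peak of either mark in its window. They were Pax7, which marks muscle stem cells, and the myogenic factors Myod1, Myf5 and Myog. Myog had H3K4me3 just outside the window, 5453 bp from the gene body (chr1:134298001-134300000, score 1000). For Myod1 the nearest H3K4me3 was 16402 bp away, at the start of Kcnc1, for Pax7 it was 112062 bp away and for Myf5 209408 bp. The nearest H3K27ac was 68453 bp from Myog, 112062 bp from Pax7, 358408 bp from Myf5 and 415402 bp from Myod1, so that no muscle factor had H3K27ac within 50000 bp.

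Of 4 heart factors, Nkx2-5 and Tbx5 had neither mark. Hand2, which acts in the heart and in the limb bud, had both marks over its start (chr8:57320501-57324000, 3500 bp), from 482 bp before to 3017 bp after it. The H3K27ac score was 59 in hypoxia and 54 in normoxia, near the lowest score of the lists (50), and the H3K4me3 score was 128. The antisense RNA gene Hand2os1 also starts within 500 bp of this stretch, and reads of marked histones do not tell the strands apart. Gata4, a zinc-finger factor of heart and endoderm, had H3K4me3 only in 3 peaks: over its own start (chr14:63244501-63246500, score 117), in an intron (chr14:63255001-63257000, score 123) and at the start of the neighbouring gene Neil2 (chr14:63193001-63194500, score 85).

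Of 5 blood factors, 3 had H3K4me3 only and 2, the erythroid factor Gata1 and the myeloid factor Spi1 (PU.1), had neither mark. Gata3, a T cell factor, had 2 touching H3K4me3 peaks (chr2:9877501-9879000 and chr2:9879001-9883500, both with a score of 121), which together covered 6000 bp from 4900 bp before to 1099 bp after its first start. The second peak also lay within 500 bp of starts of 4930412O13Rik and 9230102O04Rik. Tal1, a factor of blood stem cells and erythroid cells, had one peak over its first start (chr4:115056001-115058500, score 83) and another 6075 to 8074 bp after it (chr4:115062501-115064500, score 126). Pax5, the B cell factor, had 2 intronic peaks (chr4:44702501-44705500, score 105, and chr4:44663501-44665500, score 121). They lay at starts of the RNA genes 5730488B01Rik and Gm12462, and none lay at a basic-annotation start of Pax5. Spi1 had H3K27ac 9390 bp from the gene body and the nearest H3K4me3 at 11390 bp, at the start of Slc39a13.

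Since a window can hold peaks of other genes, the marks were also read within 1000 bp of any start of the gene itself. H3K4me3 was there in 17 of 42 members (40.5%), against 58.9% of all protein-coding genes. It was there in 38 of 40 mesenchymal factors (95%) and in 34 of 60 further lineage factors (56.7%). H3K27ac was at an own start in 3 members (7.14%; Hand2, Pax9 and Pax8), against 37.7% of all genes, 25 mesenchymal factors (62.5%) and 4 further lineage factors (6.67%). Among genes with H3K4me3 at an own start, H3K27ac was also there in 2 of 17 members (11.8%), against 62% of all genes, 65.8% of the mesenchymal factors and 8.82% of the further lineage factors. The members therefore lay below all genes for both marks at the start, and further below for H3K27ac than for H3K4me3.

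Where members had H3K4me3 at a start, it was at the median somewhat wider than over all genes. Where touching peaks were joined, the stretch at the start of the 15 members with H3K4me3 and without H3K27ac there had a median of 3000 bp (from 1500 bp at Neurog1 to 6000 bp at Lhx2 and Gata3). The same median was 2500 bp over 4910 such genes, 3500 bp over 31 further lineage factors and 4000 bp over 13 mesenchymal factors. Widths come in steps of 500 bp, the step of the peak calls. The quartiles of the members (2250 to 3250 bp) and of the 4910 genes (2000 to 3000 bp) overlapped. Where both marks were at the start, the stretch was 3500 bp for Hand2 and Pax9, with a median of 6000 bp for 25 mesenchymal factors and 3000 bp for 8018 genes.

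CpG content, which the choice of members did not use, differed in its median between the classes, although their ranges overlapped. The CpG observed to expected ratio, the number of CpG over that expected from the C and G content, was taken in 1001 bp around the first start. Its median was 0.684 in the 18 members with H3K4me3 only (0.568 to 0.880), 0.743 in the 3 with both marks (0.631 to 0.840) and 0.493 in the 20 with neither (0.0517 to 0.770), and it was 0.221 for Pax8. For Lhx1 and Pax9 (both marks) and Pax6, Neurod1, Nkx2-2 and Pax5 (H3K4me3 only), the peaks lay more than 1000 bp from the first start. Their ratios thus describe DNA outside the peaks that gave their class. Over all protein-coding genes the medians of the ratio were 0.657, 0.753, 0.182 and, for H3K27ac only, 0.250. The members with neither mark thus had a higher median than all genes with neither mark, and so did the 20 further lineage factors with neither mark, at 0.561.

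A start with a ratio of at least 0.6 is called CpG-rich here. The first start was CpG-rich in 13 of 16 neural, 3 of 10 endodermal, 1 of 4 muscle, 2 of 4 heart and 3 of 5 blood factors. It was CpG-rich in all 3 factors of the sclerotome, pharynx and kidney. The lineages thus differed in CpG content as well as in marks, and differences between them were not tested. Of the 25 members with a CpG-rich first start, 15 (60%) had H3K4me3 at an own start, against 95.4% of the 10421 such protein-coding genes. All 27 mesenchymal factors with such a start had it, and 27 of 37 further lineage factors (73%). The 10 CpG-rich members without H3K4me3 at an own start were Lhx1 (0.840), Otx2 (0.770), Olig2 (0.756), Pax5 (0.679), Neurod1 (0.679), Pax3 (0.669), Nkx2-1 (0.668), Nkx2-2 (0.658), Pax7 (0.638) and Cdx2 (0.637), and 6 of them had neither mark in the window. Nkx2-2 and Pax5 had H3K4me3 at a start of the comprehensive annotation, and the Neurod1 peak began 1251 bp from its start, just past the 1000-bp limit. With the comprehensive annotation, 19 in place of 17 members had H3K4me3 at an own start. The share of all genes with that annotation is not given here, so the gap depends on the starts used. Of the 17 members with a lower ratio, 2 (11.8%), Pax6 and Foxa3, had H3K4me3 at an own start, against 25.9% of all such genes. Foxa3 lay just under the limit, at 0.595. The H3K4me3 of Pax6 lay at a later start, and the highest ratio among its starts was 0.849.

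**Figure D3:**
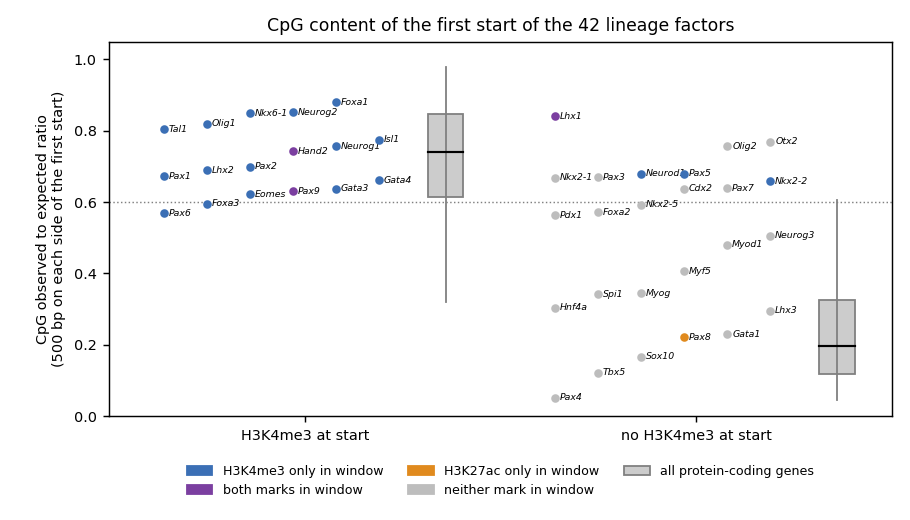
CpG observed to expected ratio (y axis) in 1001 bp around the first start of each of the 42 factors, divided by whether H3K4me3 lay within 1000 bp of an own start, with colours for the marks in the window. Grey boxes give the quartiles and median of all protein-coding genes and their lines the 5th to 95th percentiles, and the dotted line is at 0.6. On the right, 10 factors lie above the dotted line.

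The same was seen along the windows. They were divided into bins of 500 bp, the step of the authors' peak calls, and bins were grouped by their number of CpG. Of the 136 member bins with 30 or more CpG, 60 (44.1%) lay in an H3K4me3 peak, against 85.6% for all genes, 89.3% for the mesenchymal factors and 65.7% for the further lineage factors. In bins with 20 to 29 CpG the shares were 21.5% (35 of 163) for the members and 46%, 53.3% and 34.1% for the others. H3K27ac covered 3.68% of the members' bins with 30 or more CpG, against 9.6% for the further lineage factors, 54.7% for all genes and 64.9% for the mesenchymal factors. Bins of a gene share its peaks and are not independent of each other.

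Single genes showed how far this went. Olig2 had 13 bins with at least 20 CpG, up to 61 CpG in a bin, and none in an H3K4me3 peak. Foxa2 also had 13 such bins and Pax7 had 12, and none of them was in a peak. Foxa1, by contrast, had 8 of 11 such bins in H3K4me3 peaks, Nkx6-1 6 of 8, and Gata3 8 of 12. In Pax6, with 13 such bins, 4 were covered.

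**Figure D4:**
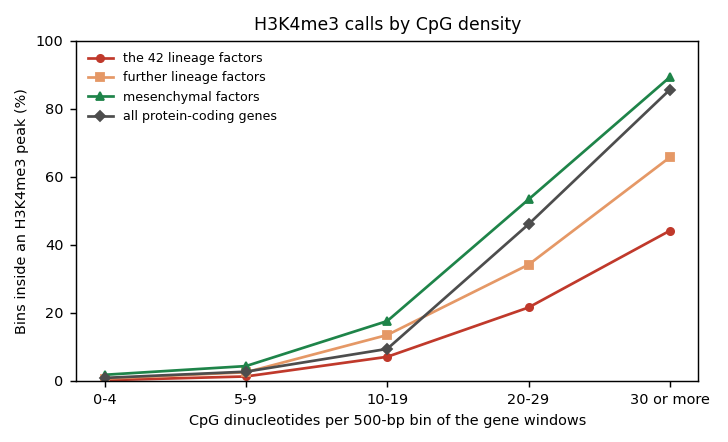
Share (%, y axis) of the 500-bp bins of the gene windows that lie in an H3K4me3 peak, by the number of CpG in the bin (x axis), for the 42 lineage factors, 60 further lineage factors, 40 mesenchymal factors and all protein-coding genes. In the densest bins the line of the 42 factors ends at 44.1% and that of all genes at 85.6%.

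The members' promoters were also searched for 3 short motifs in the 200 bases before the first start, on both strands. CCAAT, the core bound by NF-Y, was found in 18 of 42 members (42.9%) and 31.8% of all genes. It was before all 3 members with both marks (31.8% of all genes of that class) and before Pax8 (25.3% of all genes with H3K27ac only). It was also in 7 of 18 members with H3K4me3 only (38.9%; 31.1% of that class) and 7 of 20 with neither mark (35%; 32.5%). The bases searched before Lhx1, Pax9 and Pax8 lay outside their H3K27ac peaks. GGGCGG, the GC box, was found in 19 members (45.2%) and 39.3% of all genes. It was in 11 of 18 members with H3K4me3 only (61.1%; 51.3% of all genes of that class) and in 6 of 20 with neither mark (30%; 11.5% of all genes of that class). TATAAA was found in 3 members, Foxa3, Lhx3 and Spi1 (7.14%), and in 9.16% of all genes. A match only says that these letters are there.

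Each peak carried a score, whose definition was not stated in the sources used here. It ran from 50 to 1000. The 29 H3K4me3 peaks in the members' windows had scores from 53 (Neurog1) to 1000 (Foxa3) with a median of 123, against a median of 129 in each list, and 7 were above it. The 5 H3K27ac peaks lay low in their lists. In hypoxia they ran from 58 to 93 against a list median of 111 and none was above it, and in normoxia they ran from 54 to 133 against 102 and 1, upstream of Pax8, was above it. Without the lowest-scoring 25% of peaks of each list, none of the members had both marks, Lhx1, Hand2 and Pax9 kept H3K4me3 only, and 10 in place of 17 had H3K4me3 at an own start. No share of all genes under this filter is given here.

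The oxygen levels were compared by asking which peaks were called at one of them only. In the windows, 0 of 42 members had an H3K27ac peak called at a single oxygen level, against 3.8% of all protein-coding genes, 3 mesenchymal factors and 1 further lineage factor. Only Lhx1, Hand2, Pax9 and Pax8 had any H3K27ac in the window, so few members could be counted here. Of all genes, 44.2% had both marks and 2.07% had H3K27ac only. For H3K4me3, 0 of 42 members had a peak called at a single oxygen level, against 0.0228% of all genes. Every class count was the same when read from the hypoxia lists or the normoxia lists alone. All 29 H3K4me3 peaks of the members had equal scores at both oxygen levels, which was also the case for all 14600 H3K4me3 peaks common to both lists, so these scores carry no difference between the conditions. Of the 5 H3K27ac peaks, 2 had equal scores (Pax9 and Lhx1, 58 at each level), as did 43.6% of all shared H3K27ac peaks, and the others differed in both directions: Hand2 and the intron of Pax8 were higher in hypoxia and the upstream peak of Pax8 higher in normoxia.

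Further out, H3K27ac peaks called at one oxygen level lay within 50000 bp of the gene body of 3 members (7.14%), against 9.31% of all genes, 15% of the mesenchymal factors and 5% of the further lineage factors. Foxa1 had a normoxia-only peak 29628 bp away (chr12:57507501-57511000, score 84), which was also its nearest H3K27ac. Gata4 had a hypoxia-only peak 30422 bp away (chr14:63165501-63168500, score 77). Hnf4a had a hypoxia-only peak 28591 bp away (chr2:163601501-163603500, score 66), at the start of Ttpal and under an H3K4me3 peak called at both levels. Distance does not tie a peak to a gene, and the share of members was not above that of all genes.

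Any H3K27ac, at either oxygen level, lay within 50000 bp of 14 members (33.3%), against 65.3% of all genes, 90% of the mesenchymal factors and 40% of the further lineage factors. The median distance from the gene body to the nearest H3K27ac peak was 96099 bp for the members, 61036 bp for the further lineage factors, 10436 bp for all genes and 0 bp for the mesenchymal factors. By lineage the median was 235235 bp for the muscle factors, 128651 bp for the neural, 75679.5 bp for the endodermal, 54926 bp for the blood and 29707 bp for the heart factors. Several of the nearest peaks were at promoters of other genes, such as Irf2bp1 for Foxa3 (6784 bp) and Golga4 for Eomes (19369 bp).

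**Figure D5:**
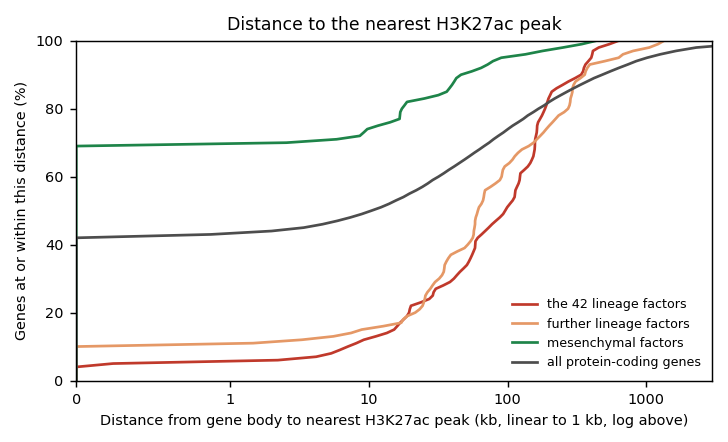
Share of genes (%, y axis) whose nearest H3K27ac peak lies at or within a given distance of the gene body (x axis, kb, linear up to 1 kb and logarithmic above), for the 42 lineage factors, 60 further lineage factors, 40 mesenchymal factors and all protein-coding genes. The median is 96099 bp for the 42 factors and 10436 bp for all genes.

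Members that lie near each other did not always share their marks. Nkx2-1, with neither mark, and Pax9, with both, were 154858 bp apart on chromosome 12, and the Pax9 peak was the nearest H3K27ac to Nkx2-1. Pdx1 and Cdx2, 24956 bp apart on chromosome 5, both had neither mark. Nkx2-2 and Pax1, 167681 bp apart on chromosome 2, both had H3K4me3 only.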

How the data were processed

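ChIP-seq of H3K27ac and H3K4me3 was deposited for MSCs at both oxygen levels. Per the methods, the authors aligned reads with bowtie2 (build mm10), dropped duplicates (Picard) and used chromstaR in differential mode, with 1000-bp bins at 500-bp steps, to call peaks jointly for the oxygen levels. The deposited lists give positions and a score per peak. The score was used to describe and filter peaks within a list and, for peaks in both lists of a mark, set side by side without a test. The 4 lists formed 22555 distinct intervals, of which 0 overlapped another in part.

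Peaks were read with Python 3.11.15 and numpy 2.4.6 against GENCODE M21 (same build), with a 1-bp overlap. Starts are those of the basic annotation. A peak at an oxygen level only shared no base with the other list of its mark. Promoter DNA was read from the reference genome, and bases in annotated exons were left out. The overlap and CpG counts were tested on simulated data with known answers. All members were named. By rule, peak positions were given for those with both marks, with H3K27ac at an own start, with peaks at an oxygen level only, or among the 8 with the widest summed H3K4me3 of those with H3K4me3 only. Positions for other members, and the genes named from other lists or as neighbours, were chosen after their values were seen. Members and lists were chosen with earlier results of these data known. No library values, and so no input libraries, were analysed here.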

Additional observations from a re-analysis of the deposited data

How the results depend on the processing

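Under the alternatives, 4 counts moved by more than 1.5 times. Members with H3K27ac only became 2 with 10000 bp on each side, since Spi1 was added. Without the lowest-scoring 25% of peaks, 0 members had both marks, 10 had H3K4me3 at an own start and 1 had H3K27ac there, while 12 had H3K4me3 only and 29 neither mark. No share of all genes under the same filter is given here, so these counts do not show how the members then compare with all genes. The CpG ratio of Pax8, reported as 0.221, was 0.263 in 2001 bp and 0.256 at the highest of its starts. Counts for the comprehensive annotation, for own starts without peaks at other genes and the highest CpG ratio were added after seeing the data. No replicate could be left out, because each list was made from both libraries. No paired analysis was possible because the lists hold no value per library. The number of libraries and the unknown depth limit all counts of missing peaks.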
